A study of Mus musculus with 18 samples.

Results

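The expression of 9 endoderm factors was followed in mouse embryonic stem cells (mESCs) and in embryoid bodies (EBs), by bulk RNA-seq. The 9 genes are Gata6, Gata4, Sox17, Sox7, Pdgfra, Foxa2, Hnf4a, Dab2 and Lama1. They were chosen by symbol, as known factors of primitive and definitive endoderm, out of the 55487 genes in the count table, and each symbol matched a single gene. The choice was made with earlier results of these data known, so the counts and tests below describe the 9 genes and are not independent support for a pattern among them.

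Primitive endoderm is the extraembryonic layer that forms beside the epiblast in the blastocyst. It depends on the zinc finger factors GATA6 and GATA4 and on the SoxF factors SOX17 and SOX7, and PDGFRA is its surface receptor. From it come the visceral endoderm, which takes up nutrients, and the parietal endoderm, which lays down a thick basement membrane. Definitive endoderm forms later, from the primitive streak, and uses SOX17 and FOXA2 as well. In cultured mESCs, a small number of cells can express primitive endoderm genes while the others stay pluripotent.

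Promoter windows of 300 bases around a start site (RefSeq, GRCm38.p6) were used for 4 of the 9 genes, with 8 windows in all. Gata6 was left out of the search, and Gata4, Sox17, Sox7 and Lama1 had no window. The windows of Dab2 and Hnf4a are shown because both hold a GATA word. The levels of these 2 genes ran differently across the libraries, as given below. Capitals mark the GATA words. The Dab2 window is chr15:6299539-6299838 and the Hnf4a window is chr2:163506607-163506906, both on the + strand.
Dab2: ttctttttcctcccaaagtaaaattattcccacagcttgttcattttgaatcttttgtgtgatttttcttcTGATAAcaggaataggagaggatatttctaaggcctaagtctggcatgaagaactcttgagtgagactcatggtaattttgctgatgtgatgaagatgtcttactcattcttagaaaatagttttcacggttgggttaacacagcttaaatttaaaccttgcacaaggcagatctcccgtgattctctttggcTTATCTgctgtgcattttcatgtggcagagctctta
Hnf4a: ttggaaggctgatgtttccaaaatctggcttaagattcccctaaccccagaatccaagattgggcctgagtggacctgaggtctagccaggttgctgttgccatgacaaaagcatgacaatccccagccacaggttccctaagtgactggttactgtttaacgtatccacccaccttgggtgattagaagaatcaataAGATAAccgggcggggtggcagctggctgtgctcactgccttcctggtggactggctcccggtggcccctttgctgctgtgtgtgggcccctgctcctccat
The words searched on both strands were AGATAA, then TGATAA, then AGATAG and lastly TGATAG, for GATA factors. In Dab2, TGATAA starts 179 bases before the start site and AGATAA, on the opposite strand and so printed as its reverse complement, starts at base 14 after it. In Hnf4a, AGATAA starts 52 bases before the start site. Of the 8 windows, 3 held a GATA word (1 each for Dab2, Hnf4a and Foxa2), against 29.8% of all 32851 promoter windows. For SOX factors the words ACAATG, then ACAATA and lastly ACAATT were in 0 of the 8 windows and in 26.1% of all. For forkhead factors the words TGTTTAC, then TGTTTGC and lastly TATTTAC were in 1 window, that of Pdgfra, and in 11.2% of all. These matches describe letters and do not show binding.

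All libraries came from ES-E14TG2a, a male mESC line derived from strain 129 mice. IκBα is the inhibitor of NF-κB that is encoded by Nfkbia. At each of 3 stages (0 hr for mESCs, then 48 and 96 hr for EBs) the labels give 3 IκBα+/+ clones (WT) and 3 IκBα-/- knock-out clones (KO), so that 18 libraries were sequenced. The KO clones carry a CRISPR-Cas9 lesion made with guide RNAs in exon 1 of Nfkbia, and each library is 1 clone. mESCs were kept with serum and LIF, the cytokine that holds them undifferentiated, and EBs are aggregates that differentiate once LIF is withdrawn. In the mESC columns of the count table the genotype is given. The 12 EB columns carry a clone code (D4, E14, E2, E3, H7 or H9) and a time, and the labels do not pair the codes with a genotype. EBs are therefore described by stage and clone code, and WT and KO were compared in mESCs only.

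The counts on genes per library were 29423089 to 40904247 in mESCs, 28287582 to 33169091 at 48 hr of EB culture and 30570857 to 36340056 at 96 hr. In mESCs, with clones in the order 1, 2 and 3 here and below, Nfkbia counts were 1009, 1069 and 767 for WT against 347, 385 and 372 for KO (log2 fold change -1.67, edgeR adjusted p = 0.00489). The pluripotency markers Pou5f1, Nanog, Sox2, Zfp42 and Esrrb together had 2830 to 3130 CPM (counts scaled to library size) in WT and 3160 to 3650 CPM in KO mESCs, and each of the 5 was detected in every library. Some libraries stand apart. KO clone 2 differed from the other 5 mESC libraries with a chi-square per degree of freedom of 47.7 to 59.9. The values were 5.04 to 10.5 among the WT clones and 7.71 between KO clones 1 and 3. Between genotypes, KO clones 1 and 3 differed from the WT clones with values of 25.7 to 42.8. KO clone 2 was also the library with the most counts, 40904247. The 96 hr library E14 differed from the other 5 of its stage with values of 47.4 to 159. For E3 the values were 46 to 159 at 96 hr and 39.2 to 81.5 at 48 hr. D4 and E2 were close to each other (5.52 at 48 hr, 6.57 at 96 hr), as were H7 and H9 (6.83 and 13.1). Values between D4 or E2 and H7 or H9 were 35.5 to 47.4 at 48 hr and 55.6 to 87.3 at 96 hr. At 48 hr E14 was close to H9 (9.17). The stage tests pooled all of these EB libraries. For some of the results that rest on KO clone 2, E14 or E3, values without that library are also given.

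The 9 genes lie on 7 chromosomes. In the GRCm38 annotation, Gata6 (ENSMUSG00000005836) spans chr18:11052064-11085635, Gata4 (ENSMUSG00000021944) chr14:63198922-63271692 and Sox7 (ENSMUSG00000063060) chr14:63943673-63950732. Gata4 and Sox7 are neighbours on chromosome 14, with 672 kb and 6 protein-coding genes between them. Sox17 (ENSMUSG00000025902) lies at chr1:4490931-4497354, Pdgfra (ENSMUSG00000029231) at chr5:75152292-75198215 and Dab2 (ENSMUSG00000022150) at chr15:6299788-6440712. Foxa2 (ENSMUSG00000037025) and Hnf4a (ENSMUSG00000017950) are both on chromosome 2, at 148042877 to 148046969 and 163506808 to 163572910. Lama1 (ENSMUSG00000032796) covers chr17:67697259-67822647. The values are for whole genes, exons and UTRs together.

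Per length of exon, the laminin gene was the most abundant of the 9 in WT mESCs. In median RPKM (CPM per kilobase of exon) of the 3 WT clones, Lama1 had 5.24, Dab2 0.943, Hnf4a 0.653, Gata4 0.597, Sox7 0.338, Pdgfra 0.154, Gata6 0.111, Foxa2 0.0715 and Sox17 0.0553. The transcription factors of primitive endoderm were therefore present at low levels in these cells, on counts of 71 or fewer for all but Hnf4a. At 96 hr of EB culture the order of the median RPKM over 6 libraries had changed, with Foxa2 first at 7.41, Dab2 at 2.78, Lama1 at 1.99 and Gata4 at 1.54. The other 5 genes then had medians of 0.231 to 0.545. In bulk samples, fewer cells that express a gene cannot be told apart from less RNA of that gene per cell.

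**Figure D1:**
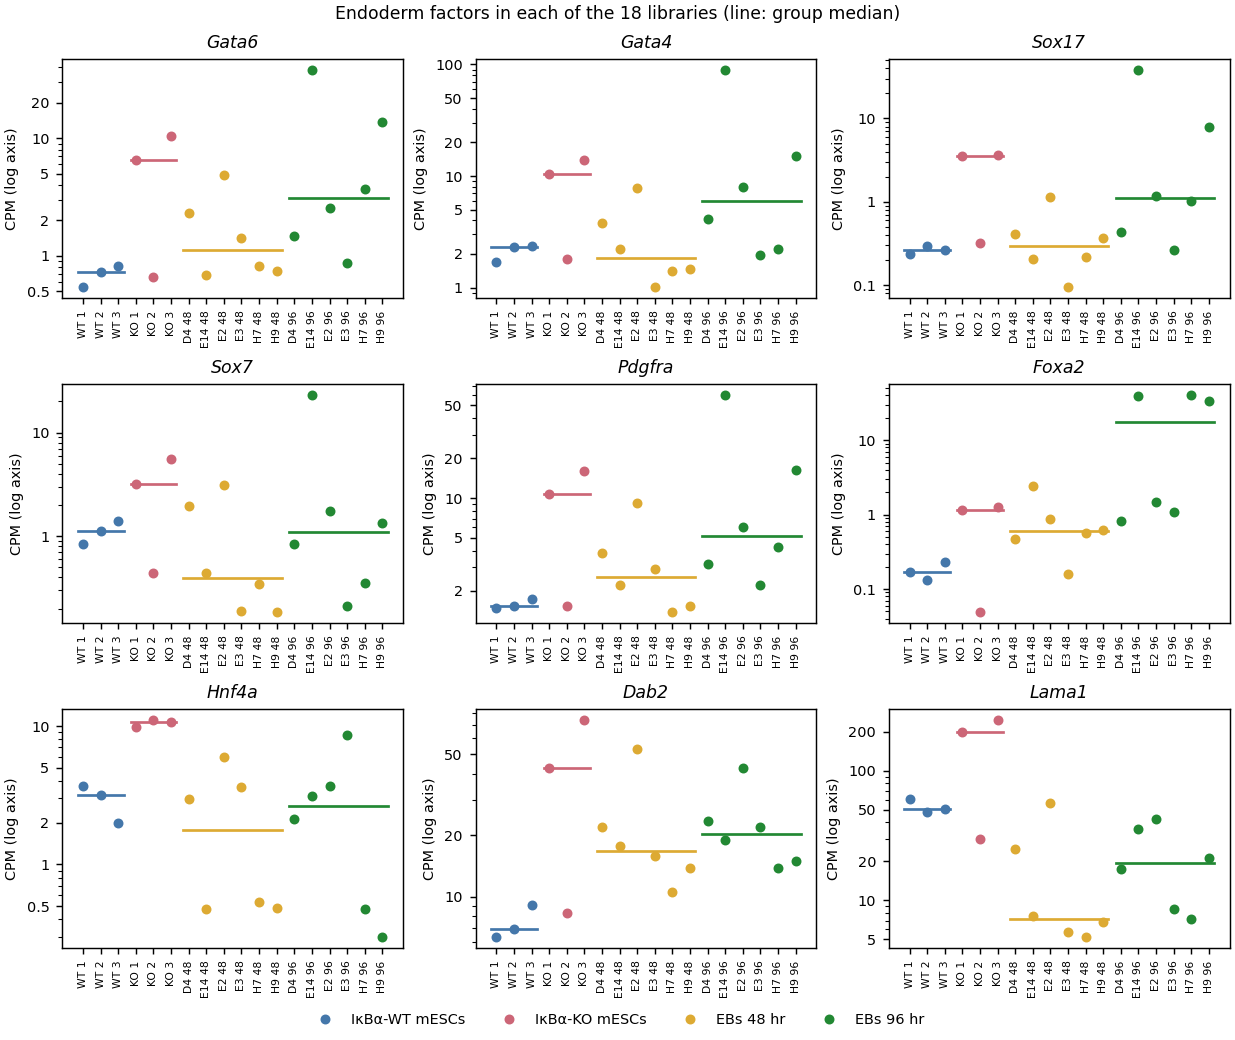
CPM of each of the 9 genes on a log axis, in each of the 18 libraries, with points coloured by group and a line at each group's median. KO clones 1 and 3 stand above the 3 WT clones for every gene, KO clone 2 does so clearly for Hnf4a, and single libraries lead among the EBs.

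The first comparison was between IκBα-KO and IκBα-WT mESCs. In KO clones 1 and 3 all 9 endoderm factors were over 1 log2 unit above the mean of the WT clones. KO clone 2 had this for 1 of the 9, Hnf4a. Across all 21843 genes tested, the share over 1 above the WT mean was 3.64% in KO clone 1, 8.85% in KO clone 2 and 5.05% in KO clone 3. With that spread between KO clones, only Hnf4a passed the test between genotypes.

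Gata6, which with NANOG settles the choice between primitive endoderm and epiblast, had 16, 22 and 25 counts in the WT clones and 224, 27 and 383 in the KO clones. This is 0.542, 0.722 and 0.825 CPM in WT and 6.57, 0.662 and 10.4 CPM in KO clones. KO clones 1 and 3 were high and KO clone 2 was inside the range of the WT clones. Its log2 fold change of KO over WT was 3.08 (standard error 0.83), with an adjusted p of 0.0741 by the quasi-likelihood test of edgeR, adjusted after Benjamini and Hochberg. The exons of Gata6 share 93 bases with 1010001N08Rik on the other strand, which had 0 to 53 counts in the 18 libraries and its highest counts where Gata6 was high (14 in KO clone 1, 22 in KO clone 3, 53 in E14 at 96 hr). The strand setting of the counting is not stated, so the part of these reads in Gata6 was not tested.

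Gata4, the related factor that follows Gata6 in primitive endoderm, had 1.69, 2.33 and 2.34 CPM in the WT clones and 10.4, 1.79 and 13.8 CPM in the KO clones. For Gata4 the log2 fold change was 2.03 (standard error 0.62, edgeR adjusted p = 0.104). Sox17 was at 0.237, 0.295 and 0.264 CPM in WT and at 3.55, 0.319 and 3.62 CPM in KO clones, on 7 to 9 counts in WT and 121, 13 and 133 counts in KO. All 3 KO clones were thus above all WT clones for Sox17, KO clone 2 by 4 counts over the highest WT count. For Sox17 the log2 fold change was 3.21 (standard error 0.83, edgeR adjusted p = 0.0643). Sox7, the other SoxF factor, had 0.847, 1.12 and 1.39 CPM in WT and 3.17, 0.441 and 5.59 CPM in KO clones, so that KO clone 2 was below every WT clone. For Sox7 the log2 fold change was 1.46 (standard error 0.72, edgeR adjusted p = 0.285).

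Gata4 and Sox7 share a region that differed in KO clone 2. In the 10 Mb window of chromosome 14 that holds both, over 61 genes, the median difference from the WT mean was -0.78 in log2 CPM in KO clone 2, against 0.06 in KO clone 1 and 0.02 in KO clone 3. The difference of Sox7 itself in KO clone 2 was -1.20 and that of Gata4 -0.22. When each gene was compared with its neighbours through an offset per window, Gata4 had a log2 fold change of 2.08 and passed (edgeR adjusted p = 0.0494). The window of Dab2 on chromosome 15 had a median of 0.40 in KO clone 2, and the windows of the other 6 genes were within 0.12 of the WT mean in every KO clone.

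Pdgfra, the receptor for PDGF-A that marks early primitive endoderm, had 1.49, 1.54 and 1.72 CPM in the WT clones and 10.7, 1.52 and 15.9 CPM in the KO clones. KO clone 2 was inside the WT range. The fitted log2 fold change was 2.57 (standard error 0.70, edgeR adjusted p = 0.0758). Its ligand genes Pdgfa, Pdgfb, Pdgfc and Pdgfd and the related receptor gene Pdgfrb were tested with the paralogues below, and none of them passed.

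Foxa2, a forkhead factor of definitive and visceral endoderm, was the gene with the fewest counts, 5, 4 and 7 in the WT clones and 40, 2 and 47 in the KO clones. KO clones 1 and 3 reached 1.17 and 1.28 CPM. The log2 fold change was 2.20 (standard error 0.91, edgeR adjusted p = 0.210), and at counts of 2 to 7 a difference of KO clone 2 from WT was not detectable at this depth.

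Hnf4a, a nuclear receptor of visceral endoderm and liver, was the one member with the same shift in all KO clones. It had 3.69, 3.15 and 1.98 CPM in the WT clones and 9.83, 11.1 and 10.7 CPM in the KO clones, that is 2.94 ± 0.876 CPM (SD, n = 3) against 10.5 ± 0.633 CPM (SD, n = 3). The groups did not overlap and KO clone 2 was the highest. Its log2 fold change was 1.84 (standard error 0.22, edgeR adjusted p = 0.00712). With each of the 6 mESC clones left out in turn this held except without WT clone 2, where the log2 fold change was 1.88 and the edgeR adjusted p 0.0719.

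Dab2, an endocytic adaptor needed in visceral endoderm, had 6.34, 6.93 and 9.11 CPM in the WT clones and 42.8, 8.36 and 74.0 CPM in the KO clones. Lama1, the alpha chain of laminin-111 in embryonic basement membranes, had 60.9, 48.2 and 50.7 CPM in WT and 199, 29.8 and 247 CPM in KO clones. For both genes KO clones 1 and 3 were the highest, and for Lama1 KO clone 2 was the lowest of the 6. The fitted log2 fold change was 2.49 for Dab2 (standard error 0.67, edgeR adjusted p = 0.0811) and 1.58 for Lama1 (standard error 0.69, edgeR adjusted p = 0.251).

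In all, 1 of the 9 genes was called higher and 0 lower at an adjusted p under 0.05 and a log2 fold change over 1, where 1.06% of all tested genes were called higher and 0.641% lower by edgeR. At an unadjusted p under 0.05 with the same fold change limit, 7 of the 9 were higher, as were 3.85% of all genes. The DESeq2 Wald test called 5 of the 9, Sox17, Gata6, Pdgfra and Dab2 besides Hnf4a, where it called 2.18% of all genes higher. For 2 of the 9, Hnf4a and Sox17, every KO clone was above every WT clone, as for 15.1% of all tested genes. The counts depend on single clones. Without KO clone 2 all 9 genes were called and 491 genes in all (2.34%) were higher, without WT clone 2 none of the 9 and 0 genes in all were called by edgeR (688 genes higher at an unadjusted p under 0.05), and with any other clone left out 1 of the 9 was called. The median log2 fold change of the 9 was 2.20, against 0.02 over all genes.

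**Figure D2:**
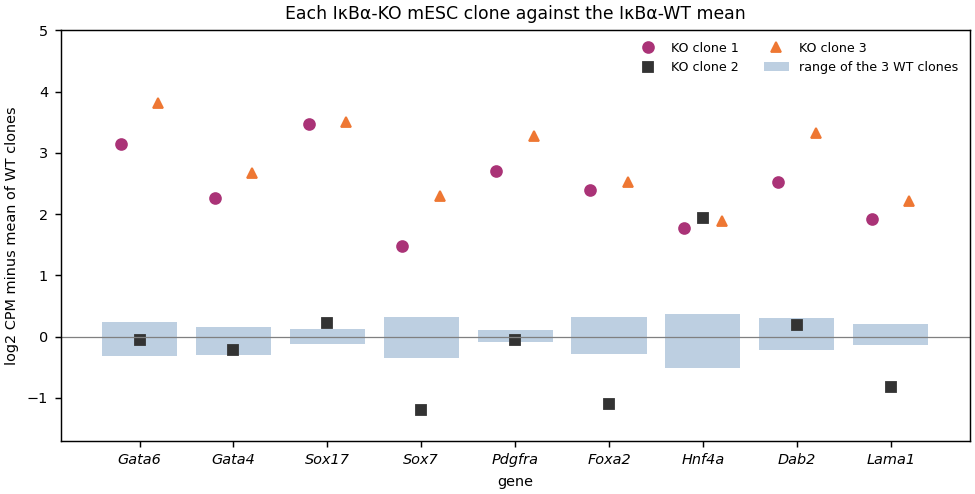
Difference of each IκBα-KO mESC clone from the mean of the 3 IκBα-WT clones in log2 CPM (prior count of 2), for each of the 9 genes, with the shaded band giving the range of the WT clones. KO clones 1 and 3 lie between 1.48 and 3.81 for all genes, and KO clone 2 reaches 1.94 for Hnf4a and lies between -1.20 and 0.22 for the others.

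The endoderm derived from these factors was read through gene lists chosen from general knowledge. Of 12 genes of parietal endoderm and its basement membrane, 2 were higher in KO mESCs and 0 lower. They were Serpinh1, the collagen chaperone (log2 fold change 1.46, edgeR adjusted p = 0.00832), and Sparc, a matrix glycoprotein (1.07, edgeR adjusted p = 0.0169). Both were above all WT clones in every KO clone, with 67.1, 49.1 and 77.1 CPM for Serpinh1 in the KO clones against 19.6 to 27.9 CPM in WT. The median of the list was 0.94 (0.02 over all genes). By clone, 6 of the 12 genes were over 1 above the WT mean in KO clone 1, 1 in KO clone 2 and 7 in KO clone 3. Without KO clone 2 the test called 6 of the 12, and without WT clone 2 or WT clone 3 it called 0.

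Visceral endoderm genes also differed between KO clones, with summed levels of 239, 105 and 353 CPM against 130 to 166 CPM in WT. Of the 17 listed, 13 were tested and 1 was called, Apom, the apolipoprotein M gene (log2 fold change 1.64, edgeR adjusted p = 0.0493), which had 3.63 CPM in KO clone 2 and 2.14 and 3.62 CPM in KO clones 1 and 3, against 0.594 to 1.59 CPM in WT. For Apom, as for Hnf4a, KO clone 2 was above every WT clone, and for Apom it was level with KO clone 3. In KO clone 1, 4 of the 13 were over 1 above the WT mean, in KO clone 2, 3 were over 1 above and 4 over 1 below it, and in KO clone 3, 5 were above. The call of Apom was lost in the replicate block and when clone 2 or 3 of WT, or 1 or 3 of KO, was left out, and without KO clone 2 the test called 4 of the 13. The secreted visceral endoderm products Afp, Ttr, Apoa4 and Fgb had 0 to 5 counts in every mESC library. The list's median log2 fold change was 0.55.

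Of 14 genes of definitive endoderm and its streak precursors, 11 were tested in mESCs and none was called by edgeR, and their median was 0.35. Of 18 paralogues and partners of the 9 genes (the other GATA, SoxF, FOXA, HNF4, DAB and laminin alpha genes and the PDGF ligands and second receptor), 16 were tested and none was called, with a median of 0.16. Without KO clone 2, 1 was called higher and 1 lower (Gata3 and Pdgfb). With all clones no marker of another cell type was called. The 6 mesoderm markers summed to 3.94 to 4.59 CPM in WT and 3.11 to 3.87 CPM in KO mESCs, the 4 node and notochord markers to 2.89 to 4.19 CPM and 2.64 to 3.41 CPM, and none of those tested was called. In the node list, Noto and Shh had 0 counts in each WT clone and at most 1 count in a KO clone. Trophoblast markers summed to 9.35 to 12.5 CPM in WT and 12.2 to 17.1 CPM in KO. Blood and endothelium markers summed to 96.4 to 103 CPM in WT and 113 to 153 CPM in KO. Pecam1 made up most of these last sums, with 60.5 to 67.9 CPM in WT and 72.3 to 116 CPM in KO. Tek added 28.3 to 31.5 CPM in WT and 27.9 to 30.7 CPM in KO. No gene of either list was called. Without KO clone 2 edgeR called 1 gene of each higher, Cdh5 of the blood and endothelium list and Gata3 of the trophoblast list, and Cdh5 was also called in the replicate block. Cdh5 had 2.32, 0.834 and 2.18 CPM in the KO clones and 0.361 to 0.627 CPM in WT. Gata3 had 3.9, 1.4 and 7.22 CPM in the KO clones against 1.25 to 1.83 CPM in WT. As with the 9 genes other than Hnf4a, both were highest in KO clones 1 and 3. Their part in the levels of the 9 genes was not tested.

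The second comparison followed the 9 genes from mESCs to EBs at 48 hr, over both genotypes. Lama1 fell and the other 8 genes did not pass the test. In the 6 libraries at 48 hr, Lama1 had 5.23 to 56.6 CPM with a median of 7.25, against 48.2 to 60.9 CPM in WT and 29.8 to 247 CPM in KO mESCs. All but 1 of the EB libraries (E2) were below every mESC library. The log2 fold change was -2.57 (standard error 0.70, edgeR adjusted p = 0.00960). Against the WT mESC clones alone, with EBs of both genotypes kept, it was -1.61 and did not pass (edgeR adjusted p = 0.129).

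The other 8 genes had log2 fold changes from -1.77 (Sox17) to 0.73 (Foxa2) at edgeR adjusted p of 0.150 to 0.884, and 1 of 9 called lower compares with 4.95% of all 25318 genes tested (4.62% were called higher). KO clones 1 and 3 enter the mESC group at high levels. The fit against the WT mESC clones alone kept EBs of both genotypes, so its values are not changes within WT clones. There the log2 fold change was 1.35 for Gata6, 1.12 for Pdgfra, 0.58 for Sox17 and 0.45 for Gata4, with the opposite sign. It was 1.55 for Dab2 (edgeR adjusted p = 0.0350), the only one of these to pass.

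At 48 hr a single library led. E2 was the highest of the 6 for 8 of the 9 genes, and E14 was for Foxa2. Gata6 had 4.88 CPM in E2, 2.31 CPM in D4 and 0.684 to 1.43 CPM in the other 4. Dab2 had 53.2 CPM in E2 and 10.5 to 22.0 CPM in the others. Pdgfra had 9.16 CPM in E2, 3.84 CPM in D4 and 1.38 to 2.91 CPM in the rest. The visceral endoderm genes moved with these, since their summed level at 48 hr was 635 CPM in E2 and 162 to 451 CPM in the other libraries. Cubn, the endocytic receptor cubilin, had 135 CPM in E2, 43.7 CPM in D4 and 3.79 to 11.7 CPM in the other 4. Both Cubn and Srgn, which had 11.9 CPM in E2 and 0.538 to 4.56 CPM elsewhere, were picked after their values were seen. Over the 6 libraries, visceral endoderm genes were the one endoderm list with 2 higher calls against mESCs, Lrp2 (log2 fold change 1.33, edgeR adjusted p = 0.00624) and Apob (1.86, edgeR adjusted p = 0.0376), endocytic receptor and lipoprotein genes, with Spink1 called lower (-2.88, edgeR adjusted p = 0.0420). Its median of 0.13 compares with 0.00 over all genes, and without E14 at 48 hr the call of Spink1 was lost. Of the parietal list 1 of 12 was lower, Nid1 (-1.48, edgeR adjusted p = 0.00328), with a median of -0.64. Of the definitive endoderm list 1 of 14 was higher, Otx2 (1.36, edgeR adjusted p = 0.000187), with a median of 0.69, and of the 17 paralogues tested 1 was higher, Pdgfd (1.23, edgeR adjusted p = 0.0102), with a median of 0.14. No mesoderm, node, blood or trophoblast marker was called, and 4 of the 5 pluripotency markers were lower, all but Pou5f1.

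The third comparison, of EBs at 96 hr with EBs at 48 hr, asked how the endoderm factors change as EBs differentiate. Foxa2, Sox17 and Gata4 were higher at 96 hr, and 0 of the 9 genes were lower, where 7.1% of all 25318 tested genes were called higher and 4.76% lower. The size of the change differed between libraries, and for Sox17 and Gata4 it rested on E14.

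Foxa2 had 0.158 to 2.43 CPM at 48 hr. At 96 hr it had 39.8 CPM in E14, 40.6 CPM in H7 and 33.7 CPM in H9, and 0.809, 1.47 and 1.08 CPM in D4, E2 and E3. The stages overlapped only through these last 3 libraries. Its log2 fold change was 4.51 (standard error 1.06, edgeR adjusted p = 0.00473). Each clone code had a higher level at 96 hr than at 48 hr, with log2 changes from 0.70 (D4) to 6.02 (H7). With the clone code as a block the log2 fold change was 3.73 (edgeR adjusted p = 0.0162), and Foxa2 passed under all 19 alternatives.

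Sox17 had 0.095 to 1.15 CPM at 48 hr. At 96 hr it had 38.2 CPM in E14, 8.0 CPM in H9 and 0.262 to 1.19 CPM in the other 4. The fitted log2 fold change was 4.32 (standard error 1.22, edgeR adjusted p = 0.0144). Within clone codes the log2 change was 7.17 in E14, 4.23 in H9, 1.94 in H7, 1.05 in E3 and 0.08 or less in D4 and E2. The call was lost with the clone code as a block (2.69, edgeR adjusted p = 0.103) and without E14 at 96 hr (2.43, edgeR adjusted p = 0.0847).

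Gata4 had 1.01 to 7.82 CPM at 48 hr and, at 96 hr, 89.3 CPM in E14, 15.0 CPM in H9 and 1.97 to 7.90 CPM in the other 4. E14 was thus 5.97 times the next library. The log2 fold change was 2.76 (standard error 0.92, edgeR adjusted p = 0.0326). It was 1.63 with the block (edgeR adjusted p = 0.156) and 1.11 without E14 at 96 hr (edgeR adjusted p = 0.274). The call was also lost, at edgeR adjusted p of 0.0508 to 0.0647 and log2 fold changes of 2.58 to 2.89, when any one of the 48 hr libraries D4, E14, E3, H7 or H9 was left out, with the 12 EB libraries alone (edgeR adjusted p = 0.0526) and with no low-count filter (edgeR adjusted p = 0.0627).

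Gata6 and Pdgfra were both highest in E14 and next in H9 at 96 hr. Gata6 had 38.0 CPM in E14, 13.7 CPM in H9, 3.68 CPM in H7 and 0.866 to 2.55 CPM in D4, E2 and E3. Pdgfra had 60.1 CPM in E14, 16.3 CPM in H9 and 2.20 to 6.10 CPM in the others. In both genes the level went down from 48 to 96 hr in D4, E2 and E3 and up in E14, H7 and H9, a description of single libraries. The log2 fold change was 2.47 for Gata6 (standard error 0.97, edgeR adjusted p = 0.0654) and 2.13 for Pdgfra (standard error 0.86, edgeR adjusted p = 0.0722). Sox7 had 23.1 CPM in E14 at 96 hr and 0.210 to 1.75 CPM in the other 5, with a log2 fold change of 2.14 (standard error 1.05, edgeR adjusted p = 0.136) that became -0.17 without E14 at 96 hr (edgeR adjusted p = 0.905).

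In the remaining 3 genes E14 was not the highest library at 96 hr. Dab2 had 10.5 to 53.2 CPM at 48 hr and 13.9 to 42.9 CPM at 96 hr, with E2 highest at both stages, and its log2 fold change was 0.03 (standard error 0.58, edgeR adjusted p = 0.972). Within clone codes it changed by -0.31 to 0.47 on the log2 scale. Lama1 had 7.23 to 42.4 CPM at 96 hr, with E2 first and E14 second, and a log2 fold change of 0.31 (standard error 0.66, edgeR adjusted p = 0.769). Within clone codes its log2 change was largest in E14, at 2.21, then 1.61 in H9, and ran from -0.51 to 0.60 in the other 4. Hnf4a was highest in E3 at 96 hr, with 8.61 CPM, where Gata6, Gata4, Sox17, Sox7 and Pdgfra were at their lowest. It had 2.14 to 3.69 CPM in D4, E14 and E2, and 0.476 and 0.299 CPM in H7 and H9. Its log2 fold change was 0.38 (standard error 0.75, edgeR adjusted p = 0.743). Within clone codes the log2 change of Hnf4a was likewise largest in E14, at 2.56, then 1.23 in E3, and ran from -0.68 to -0.14 in the other 4.

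**Figure D3:**
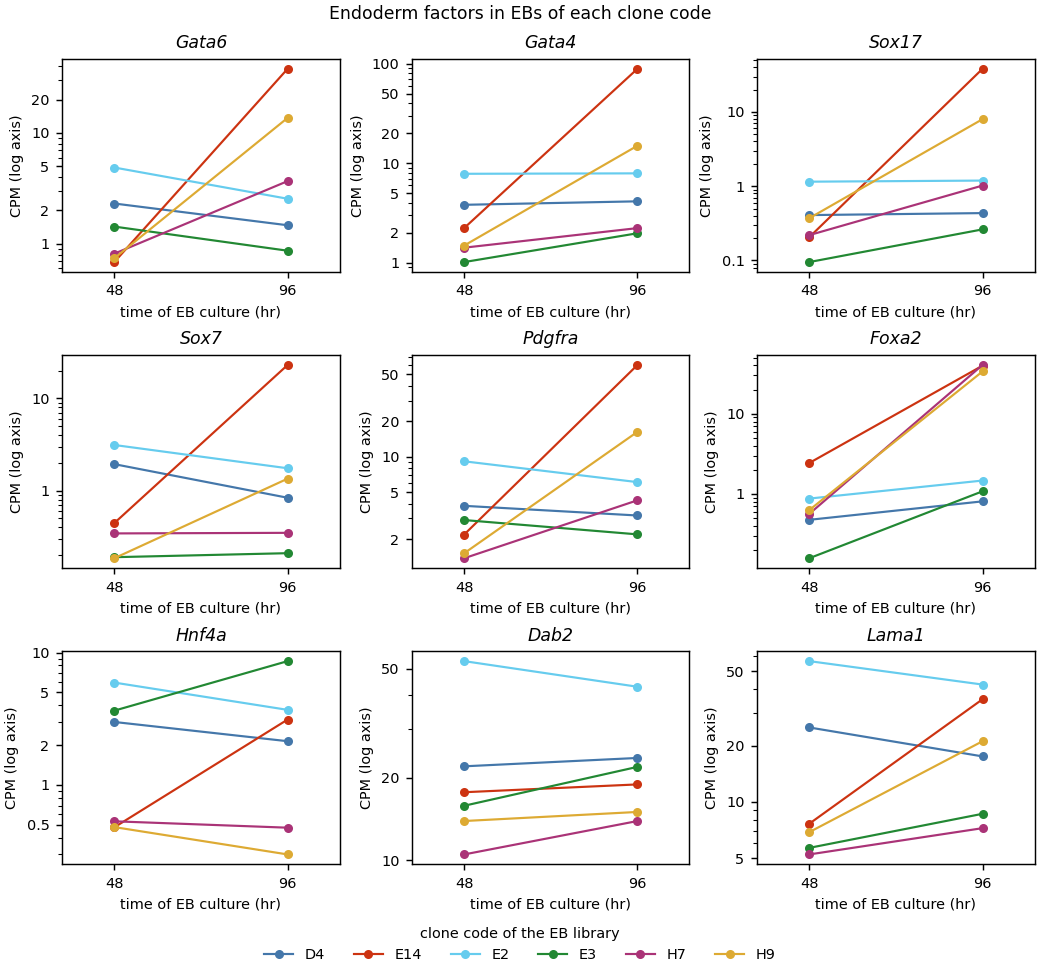
CPM of each of the 9 genes on a log axis at 48 hr and 96 hr of EB culture, with a line joining the libraries of one clone code. Foxa2 goes up steeply in E14, H7 and H9, Sox17 and Gata4 most in E14 and then H9, and Dab2 stays nearly level in every clone code.

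Of the 9 genes, 3 were called with all libraries, 1 (Foxa2) with the clone code as a block (7.88% of all genes higher), and 1 without E14 at 96 hr (5.4% of all genes higher). The same single call was left without E14 at both stages, an alternative added after the data were seen. The count was 5 without E2 at 48 hr or without E3 at 96 hr, Gata6 and Pdgfra being added each time. It was also 5, with the same additions, in the DESeq2 Wald test (7.76% of all genes higher). Shares of all genes are not given for the fits without E2, without E3 or without E14 at both stages. With single libraries left out, genes called higher ran from 1353 to 2160, against 1797 with all libraries. The median log2 fold change of the 9 was 2.14, against -0.03 over all genes.

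Genes of definitive endoderm and its streak precursors were higher at 96 hr for 9 of 14, with 0 lower and a median of 2.46. Cer1, the secreted Nodal and BMP antagonist of anterior endoderm, had a log2 fold change of 8.32 (edgeR adjusted p = 0.00115), Lhx1 of 7.04 (edgeR adjusted p = 0.000707) and Mixl1 of 5.52 (edgeR adjusted p = 0.00141). Cer1 had 103 CPM in E14, 49.9 CPM in H9 and 14.9 CPM in H7 at 96 hr, and at most 0.305 CPM in the other 3. The libraries that were high in Cer1 were the ones high in Foxa2. Without E14 at 96 hr 7 of the 14 were called, and 7 with the block. The list's summed level at 96 hr was 1420 CPM in E14, 1180 CPM in H7, 1100 CPM in H9 and 461 to 498 CPM in the other 3. Trh alone gave 580, 723 and 492 CPM of this in E14, H7 and H9. It gave 351 to 391 CPM in the other 3, most of their sums, and had 118 to 270 CPM in mESCs.

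Other cell types that use the same factors moved in these libraries too. All 6 mesoderm markers (T, Mesp1, Tbx6, Msgn1, Hand1 and Kdr) were called higher at 96 hr, and their sum was 803 CPM in E14, 554 CPM in H9, 279 CPM in H7 and 3.8 to 6.01 CPM in D4, E2 and E3. All 4 node and notochord markers (Noto, Shh, Chrd and T), of cells that express Foxa2, were called higher, at a sum of 5.40 to 529 CPM at 96 hr against 2.79 to 23.1 CPM at 48 hr. Noto had 0 counts in D4, E2 and E3 at 96 hr, and 89, 8 and 25 counts in E14, H7 and H9. Of the 7 blood and endothelium markers, of cells that express Sox7 and Sox17, 4 were called higher. Their sum was 29.2 to 226 CPM at 96 hr, highest in E14, against 59.3 to 137 CPM at 48 hr. At 48 hr most of that sum was Pecam1, at 39 to 115 CPM, which had 15.9 CPM in E14 at 96 hr. Kdr had 315 CPM in E14 and 0.420 to 24.7 CPM in the other 5, and Cdh5 33.5 CPM in E14 and 0.434 to 3.49 CPM in the others. Of the 6 trophoblast markers 2 were called higher, Cdx2 and Hand1, with a sum of 6.04 to 119 CPM at 96 hr. Without E14 at 96 hr, 5 of the 6 mesoderm, 3 of the 4 node, 1 of the 7 blood and endothelium and 0 of the 6 trophoblast markers were called higher by edgeR. With the block 3, 3, 1 and 1 were called higher and 1 blood and endothelium marker lower, the calls of that list being Etv2 and Pecam1. The part of these cells in the levels of Foxa2, Sox17, Sox7, Gata4 and Gata6 was not tested.

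Of the 17 visceral endoderm genes 3 were higher at 96 hr and 0 lower, Spink1 (log2 fold change 2.77, edgeR adjusted p = 0.0494), Cdx2 (2.65, edgeR adjusted p = 0.0141) and Rbp4 (1.21, edgeR adjusted p = 0.00617), with a median of 1.12. Cdx2 is also a trophoblast and posterior mesoderm factor. Of the 17, 5 were higher with the clone code as a block and 1 without E14 at 96 hr. The summed level of the list was 137 CPM in E14 at 96 hr, below 388 CPM in E14 at 48 hr, while E2 was highest at both stages with 378 and 635 CPM. Of the 12 parietal endoderm and basement membrane genes 2 were higher, Serpinh1 (2.03, edgeR adjusted p = 0.00111) and Plat, the tissue plasminogen activator gene (1.56, edgeR adjusted p = 0.0180), with a median of 0.34. Without E14 at 96 hr 1 of the 12 was called, Serpinh1. Of 17 paralogues and partners tested, 6 were higher and 2 lower. Among those with a mean count of 50 or more, Pdgfrb (2.18, edgeR adjusted p = 0.000268), Gata2 (2.07, edgeR adjusted p = 0.0374) and Lama4 (2.05, edgeR adjusted p = 0.0199) rose most, and Pdgfc (-1.95, edgeR adjusted p = 0.000267) and Lama3 (-1.63, edgeR adjusted p = 0.00852) fell. Without E14 at 96 hr 3 were higher and 2 lower.

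**Figure D4:**
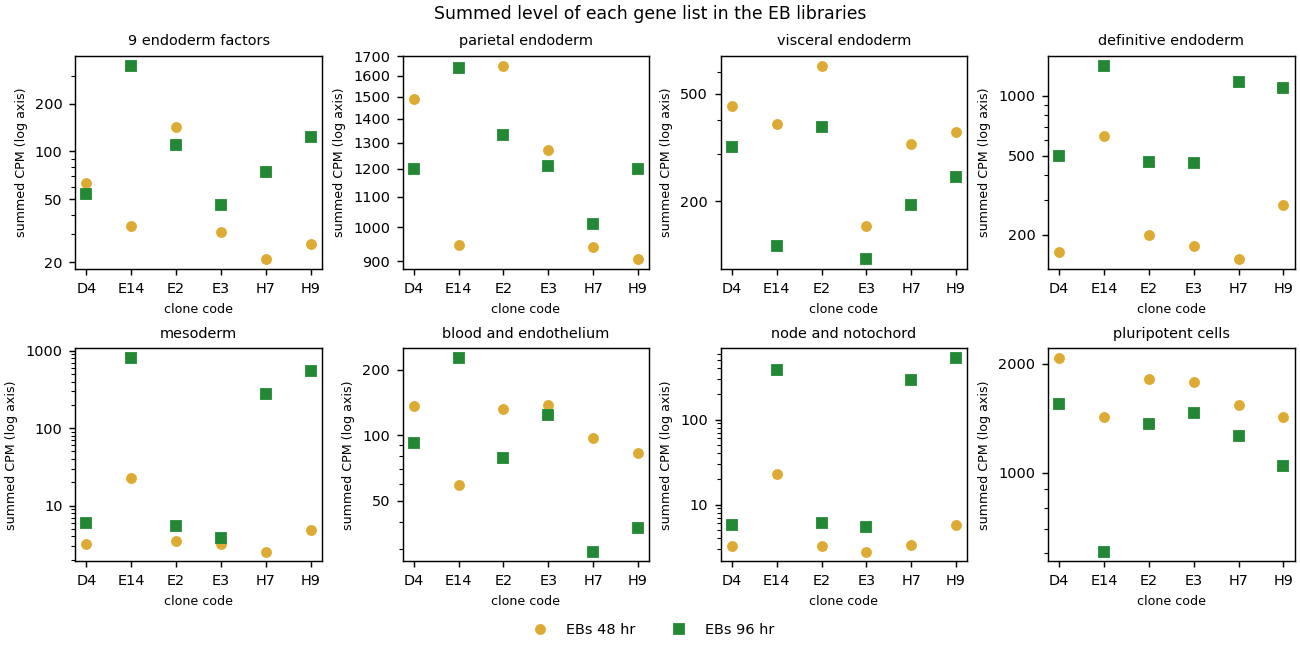
Summed CPM of the 9 endoderm factors and of 7 gene lists on log axes, in the EB library of each clone code at 48 hr (circles) and 96 hr (squares). At 96 hr E14 has the highest sum of the 9 factors, 346 CPM, and E14, H7 and H9 have high sums of definitive endoderm, mesoderm and node markers, while visceral endoderm genes are highest in E2 at both stages.

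The genes whose pattern was most like that of 3 of the members were found from log2 CPM centred on the mean of each stage, over the 18 libraries, among 13177 genes whose mean count reached 50. These correlations are descriptions, and the points share clones and the libraries that stand apart. Gata6 was most like Pdgfra (Pearson r = 0.981), Foxq1 (0.952) and Sox17 (0.947). Sox17 was most like Bmper (0.951), Gata6 (0.947) and Pdgfra (0.944). Foxa2 had none of the other members among its nearest 3, which were Tm9sf3 (0.949), Tgfbr3 (0.945) and Usp3 (0.934).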

How the data were processed

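RNA-seq libraries of 18 samples were used. Per the labels and the study's methods, the authors trimmed reads with Trim Galore 0.6.6, aligned them with STAR 2.7.8 to GRCm38 and, for reads with 1 mapped position, used featureCounts of Subread 2.0.1 on exons. The authors deposited whole-number counts for 55487 genes, with no normalization. The strand setting is not given in the sources used here. Reads shared by near-identical genes are missing from such counts. A table of normalized values was not used.

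Names and positions came from GENCODE M21, in which 55141 IDs have a symbol. In R 4.3.3, edgeR 4.0.16 scaled libraries by TMM, kept genes with at least 10 counts over the fitted libraries and applied the robust quasi-likelihood test with Benjamini-Hochberg adjustment (calls need an adjusted p below 0.05 and a log2 fold change beyond 1 in size). Genotypes were tested over the 6 mESC libraries (21843 genes) and stages over all 18 (25318 genes), where both genotypes add to the spread. The standard error was taken as the size of the log2 fold change over the root of the F statistic. Log2 CPM used a prior count of 2, CPM the TMM factors of all 18 libraries, and RPKM the merged exon length. A column of EBs was placed by the time in its name alone, since the labels do not pair clone codes with genotypes. No genotype was inferred from expression.

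The 9 genes and the gene lists were chosen with earlier results of these data known. Named genes were Nfkbia in mESCs, the 9, list genes called in mESCs, the 3 largest increases and decreases of each list between stages (mean count of at least 50), and the 3 genes most like Gata6, Sox17 and Foxa2. The lists share some genes, among them T, Hand1, Cdx2, Shh and GATA and FOXA genes. Other genes named, such as Cubn, Srgn, Kdr, Cdh5 and Noto, were picked after their values were seen.

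Replicates are independent clones. Same-numbered WT and KO mESC clones had correlations of their deviations of -0.158, 0.000502 and -0.0226 and were not taken as pairs. The clone codes pair the EB stages, since the deviations of each code at 48 and 96 hr had correlations of 0.396 to 0.734, although the 48 hr library of E14 (0.478 with its own code) correlated best with another code at 96 hr. No 2 libraries of a stage were duplicates (lowest chi-square per degree of freedom 5.04). Alternatives were DESeq2 1.42.0 (size factors or Wald test), other low-count filters, no fold change threshold, offsets per 10 Mb window, blocks, fewer libraries in the fit and each library left out. The test was checked on simulated counts.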

Additional observations from a re-analysis of the deposited data

How the results depend on the processing

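In mESCs the 9 genes kept a positive log2 fold change in all 12 alternatives (Foxa2 in 11, as it did not pass the filterByExpr filter). In the replicate block, which joins clones that share only a number, 1 of the 9 was called, 161 genes were higher and 100 lower. With each clone left out, members called ran from 0 to 9, genes called higher from 0 to 491 and genes called lower from 0 to 381, on 232 and 140 with all clones. At the lower end, without WT clone 2, edgeR called 0 genes lower with 410 at an unadjusted p under 0.05. DESeq2's Wald test called 374 genes higher and 5 members, and the window offset called 212 genes higher and 2 members. With no fold change threshold 676 genes were higher and 370 lower.

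For EBs at 48 hr against mESCs, no fold change threshold gave 3764 genes higher and 3289 lower. With the WT mESC clones alone, against EBs of both genotypes, 672 genes were higher. The sign turned for Dab2 (0.06 without KO clone 1, 0.59 without KO clone 3, 1.55 against WT clones), Pdgfra (0.044 without KO clone 3, 1.12 against WT clones), Gata6 (1.35), Gata4 (0.45) and Sox17 (0.58, the last 3 against WT clones). With each library left out, Dab2 ran from -0.62 to 0.59 and Pdgfra from -1.21 to 0.044.

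For EBs at 96 hr against 48 hr, the replicate block by clone code called 1 member, DESeq2's Wald test 5, and leaving out E14 at both stages 1. With each library left out, members called ran from 1 to 5, genes called higher from 1353 to 2160 and genes called lower from 755 to 1994 (755 without E14, 790 without H9 and 1994 without E3 at 96 hr, against 1206). Genes called lower were 719 with the 12 EB libraries alone and 792 with filterByExpr, and with no fold change threshold 3529 were higher and 3490 lower. The sign turned for Sox7 (-0.17 without E14 at 96 hr, -0.36 without it at both stages), Hnf4a (-0.27 without E3 at 96 hr), Lama1 (-0.036 without E14 at both stages) and Dab2 (-0.02, -0.05, -0.08 and -0.04 without E14, E3, H7 and H9 at 48 hr, -0.25 without E2 at 96 hr). Without E2 at 48 hr these 4 were highest, at 2.89, 0.91, 1.13 and 0.51. Of the member values from alternatives, 93 of 107 in mESCs, 162 of 171 at 48 hr and 142 of 171 at 96 hr kept sign and side of the threshold. The causes were not tested. Depth limits Foxa2 and Sox17 in mESCs most, on fewer than 14 counts in 4 clones each.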
